A study of Mus musculus with 10 samples.

Results

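The MHC class I loading machinery was followed here as 10 mouse genes, chosen by symbol, of 41813 genes in the tables. They are the heavy chain genes H2-K1, H2-D1 and H2-T23, the light chain B2m, the peptide transporter subunits Tap1 and Tap2, tapasin (Tapbp), the tapasin-related editor Tapbpl, the trimming peptidase Erap1 and the transactivator Nlrc5. Each symbol matched 1 gene ID, all 10 had counts in every library and all 10 passed the filter on low counts. RNA had been sequenced from mouse bone marrow-derived dendritic cells labelled CD11c+ and MHCIIhigh, in 3 libraries titled activated (A1, A2 and A3 by replicate number) and 3 titled non-activated (N1, N2 and N3). The design text gives lipopolysaccharide (LPS) to both groups. By that text the groups differ by a pulse with the ovalbumin peptide OVA323-339 (psDCs) or none (nsDCs), before 24 h of coculture with CD4+ OT-II T cells, which recognise that peptide on class II. The sample labels instead record LPS stimulation for the activated cells and none for the others, so the titles are used as group names. The labels used here name no strain, sex or age and do not say whether a replicate was a separate animal or culture, so the tests speak for the spread among these 6 libraries, which may be technical. ATAC-seq of 4 further samples was not analysed here.

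Class I molecules show peptides from inside the cell to CD8 T cells. A heavy chain folds with beta-2 microglobulin in the endoplasmic reticulum, where the TAP1-TAP2 transporter delivers peptides from the proteasome, tapasin holds the empty class I molecule beside the transporter, and ERAP1 trims peptides to length. TAPBPR, the product of Tapbpl, exchanges peptides outside that complex, and NLRC5 drives transcription of many of these genes without binding DNA by itself. Dendritic cells also use the pathway to present antigen they have taken up, which is called cross-presentation.

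Summed expected counts ran from 21338012 to 27404937 per library. The cells carried dendritic cell markers in every library: Cd74 stood at 5401 to 8523 CPM (counts scaled to library size with TMM factors, here and throughout) and Itgax, which encodes CD11c, at 198 to 442 CPM. Of 10 dendritic cell markers 4 rose and 0 fell, against 15.9% higher and 11.7% lower over all tested genes. The actin-bundling gene Fscn1 was 5.86-fold, the chemokine receptor gene Ccr7 2.82-fold, Irf4 2.46-fold and Zbtb46 2.00-fold higher. The rest did not pass and had log2 differences from -0.37 to -0.01. The 10 markers summed to 16038 to 18887 CPM in activated and 14555 to 17006 CPM in non-activated libraries. Both libraries numbered replicate 1 stood apart from the other 4. The T cell receptor gene Trac was at 7420 CPM in A1 and 7444 CPM in N1, against 2.73 to 27.8 CPM in the others, whereas Cd3d, Cd3e and Cd3g summed to 3.72 CPM in A1 and 0.533 CPM in N1. Without Trac, the other 15 T cell markers summed to 47.1 to 70.5 CPM in activated and 38.9 to 69.5 CPM in non-activated libraries, and 3 of 9 tested T cell markers rose (Lck, Zap70 and Cd247). Summed B cell markers were 7.02 to 11.2 CPM in activated and 0.876 to 1.43 CPM in non-activated libraries, with 2 of 3 tested higher. The neutrophil list summed to at most 0.568 CPM and the CD8 T and NK cell list to at most 1.58 CPM. Macrophage and monocyte markers summed to 1184 to 1580 CPM in activated and 1255 to 1478 CPM in non-activated libraries, with 1 of 8 higher and 2 lower. Cd3e itself was at 0.245 to 1.90 CPM in activated and 0.152 to 0.243 CPM in non-activated cells. The part of such cells, and of what sets A1 and N1 apart, in the results was not tested. In bulk RNA, more cells that carry a transcript and more of it per cell cannot be told apart.

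Upstream sequences are shown for 3 genes of unlike role, a heavy chain, the light chain and a transporter subunit, to let their elements be set beside their values. RefSeq upstream sequence was at hand for 7 of the 10 genes (GRCm38.p6, 250 bases before a transcript start in the table); those of Nlrc5, Tapbpl and Tap2 were not used here. Each window was searched on both strands for 4 elements, chosen after the sequences had been seen and known from class I promoters: the IRF core AANNGAAA, an NF-kappaB form (GGGNNTTCC, or the same with 1 more N), the CRE core TGACG, part of the X box region, and CCAAT, the core of the Y box. The windows of H2-K1 and Erap1 precede the start of a transcript that begins inside the gene span given with the values, so they lie within that span and not upstream of it. None of the matches within a printed window overlapped. Matches are in capitals below, 5′ to 3′ on the strand of the gene.

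H2-D1 (chr17:35262844-35263093, plus strand): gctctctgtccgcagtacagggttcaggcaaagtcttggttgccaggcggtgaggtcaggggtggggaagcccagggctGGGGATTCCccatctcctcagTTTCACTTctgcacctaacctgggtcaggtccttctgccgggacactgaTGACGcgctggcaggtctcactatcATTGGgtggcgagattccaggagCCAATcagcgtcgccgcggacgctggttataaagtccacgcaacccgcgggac
B2m (chr2:122147437-122147686, plus strand): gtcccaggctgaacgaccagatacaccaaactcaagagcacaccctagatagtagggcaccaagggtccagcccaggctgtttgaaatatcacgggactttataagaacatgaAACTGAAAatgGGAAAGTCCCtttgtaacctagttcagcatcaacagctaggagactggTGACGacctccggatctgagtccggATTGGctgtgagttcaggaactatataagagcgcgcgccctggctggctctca
Tap1 (chr17:34187331-34187555, plus strand, up to the start of Psmb9 on the other strand): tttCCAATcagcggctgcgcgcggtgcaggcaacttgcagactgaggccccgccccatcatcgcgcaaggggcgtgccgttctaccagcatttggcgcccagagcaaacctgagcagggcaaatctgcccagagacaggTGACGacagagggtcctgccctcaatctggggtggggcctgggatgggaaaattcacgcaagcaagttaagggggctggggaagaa

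H2-D1 and B2m held all 4 elements, as did H2-K1, and 34 of 27025 upstream windows in the table (0.126%) did so. Those 34 include the windows of these 3 genes. The elements were chosen for class I promoters after the sequences had been seen, so the share is a description and no test. The NF-kappaB and IRF forms of the 2 classical heavy chain genes lie in 29 bases that differ by 1 substitution, A18T from H2-K1 to H2-D1, counted from 1 at the first base shown.

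H2-K1 (chr17:34000430-34000458, minus strand): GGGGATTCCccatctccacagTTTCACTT
H2-D1 (chr17:35262923-35262951, plus strand): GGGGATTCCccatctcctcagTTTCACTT

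Tap1 held the CRE core and CCAAT and neither an IRF core nor an NF-kappaB form in its window, a pair of elements found together in 6.39% of windows. Its CCAAT lay 222 to 218 bases before the start, upstream of its CRE core at 86 to 82. In H2-K1, H2-D1 and B2m an ATTGG, the same element on the other strand, lay downstream of the CRE core instead. H2-T23 held 2 IRF cores and a CCAAT box, Tapbp 2 CCAAT boxes, and the Erap1 window, inside the gene, none of the 4. The single elements are common: the IRF core was in 21.6% of windows, CCAAT in 34.5%, the CRE core in 17.9% and the NF-kappaB forms in 4.88% and 4.60%. A match is a description of letters and not a bound site.

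By abundance per transcript length (the deposited TPM, which scales counts by transcript length and depth), the machinery spanned a wide range in non-activated cells. B2m came first at 9504 ± 371 TPM (SD, n = 3) and ranked 8 among all genes in each of these libraries. H2-D1 at 4136 ± 287 TPM and H2-K1 at 3965 ± 199 TPM followed and overlapped each other. H2-T23, which encodes the non-classical molecule Qa-1, at 503 ± 128 TPM overlapped Tapbp at 364 ± 69.0 TPM. Below them stood Tap1 at 264 ± 6.44, Tap2 at 166 ± 9.21, Tapbpl at 49.5 ± 6.27, Erap1 at 37.4 ± 4.71 and Nlrc5 at 22.4 ± 3.29 TPM, with no overlap between neighbours. In activated cells B2m stood at 9327 ± 680, H2-D1 at 4291 ± 566, H2-K1 at 4253 ± 362, H2-T23 at 532 ± 123, Tapbp at 468 ± 129, Tap1 at 368 ± 61.1, Tap2 at 211 ± 32.0 and Tapbpl at 117 ± 3.88 TPM (SD, n = 3). There Tapbp overlapped both H2-T23 and Tap1. Nlrc5 at 63.3 ± 16.9 TPM stood above Erap1 at 43.3 ± 4.12 TPM with overlapping libraries.

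**Figure D1:**
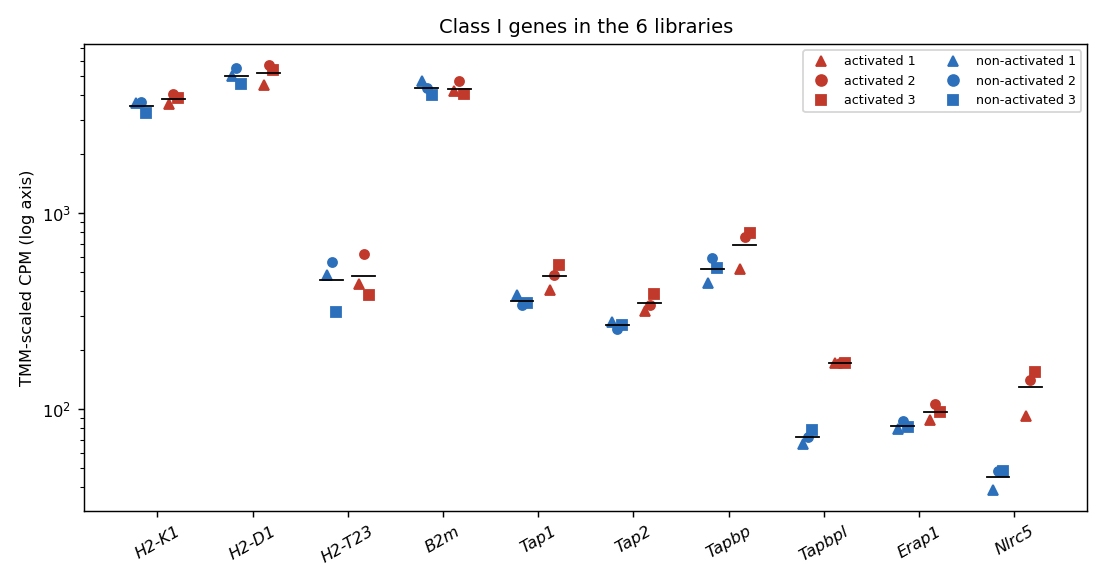
TMM-scaled CPM (log axis) of the 10 genes in each library; red is activated, blue non-activated, the marker shape gives the replicate number and bars are group means. The groups do not overlap for Tap1, Tap2, Tapbpl, Erap1 and Nlrc5 and overlap for the 3 heavy chain genes, B2m and Tapbp.

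The transporter, Tapbpl and Nlrc5 were higher in activated cells, and the heavy chains and B2m did not pass the test. Of the 10 genes, 4 were higher at an adjusted p under 0.05, 0 were lower and 6 did not pass. Across all 13946 tested genes 27.6% passed, 15.9% higher and 11.7% lower. These counts come from the fit without pairing; with the replicate number as a block 6 of the 10 were called, as were 2787 genes higher and 2397 lower over all genes, against 2216 and 1632 without it. The genes had a median log2 fold change of 0.30, against 0.01 over all genes tested. All 3 activated libraries lay above all 3 non-activated ones for 5 of the 10, and for 23.9% of all tested genes. The genes were chosen with earlier results of these data known, so these shares are a description. Adjusted p-values here are from edgeR's quasi-likelihood test over all tested genes unless another tool is named.

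The classical heavy chains were abundant in both groups. H2-K1, on chromosome 17 (GRCm38.p6, 33996012 to 34000619), stood at 3600, 4061 and 3871 CPM in activated replicates 1 to 3 and at 3643, 3695 and 3247 CPM in non-activated ones. The groups overlapped, and the log2 difference was 0.12 ± 0.10 (SE; 95% interval -0.11 to 0.36; edgeR adjusted p = 0.420). H2-D1, also on chromosome 17 (35263094 to 35267497), stood at 4543, 5706 and 5386 CPM against 5001, 5503 and 4560 CPM, a log2 difference of 0.05 ± 0.12 (SE; -0.23 to 0.34; edgeR adjusted p = 0.789). Its lowest value of all 6 was in A1. Both intervals end well below a log2 difference of 1, while smaller changes lie inside them.

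H2-T23 (chromosome 17, 36029977 to 36032701) varied more between libraries of a group than between groups. It was at 438, 618 and 384 CPM in activated and 487, 565 and 313 CPM in non-activated cells, with replicate 2 the highest and replicate 3 the lowest of each group. Its log2 difference was 0.08 with a 95% interval of -0.46 to 0.62 (edgeR adjusted p = 0.841). B2m (chromosome 2, 122147687 to 122153082) was at 4222, 4720 and 4050 CPM against 4752, 4383 and 4024 CPM. The B2m difference of -0.02 ± 0.11 (SE; -0.27 to 0.23; edgeR adjusted p = 0.923) was smaller than the spread between libraries of a group. Without A1 and N1 it was 0.04 (edgeR adjusted p = 0.844), and those of H2-K1, H2-D1 and H2-T23 were 0.17, 0.12 and 0.18 (0.321, 0.545 and 0.717).

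Heavy chain genes are close in sequence, so the division of short reads among them is uncertain. Fractional expected counts, which arise where reads are shared, were not particular to them: H2-K1, H2-D1, H2-T23, Tap1, Tap2, Tapbp, Tapbpl and Erap1 had them in all 6 libraries, Nlrc5 in 2 and B2m in 0. The sum over a list of 30 heavy chain genes of the H2-K, D, Q, T and M series, 19 of them above 0, does not depend on that split as long as reads stay in the family. It was 11662, 14801 and 13901 CPM in activated and 11960, 13076 and 11296 CPM in non-activated libraries, and the groups overlapped. Its log2 difference of 0.15 ± 0.12 (SE; -0.12 to 0.42; edgeR adjusted p = 0.386) did not pass, nor did it without A1 and N1 (0.22; 0.278). H2-D1 and H2-K1 made up 41.4% and 29.2% of it in non-activated cells, and H2-Q6, H2-Q4 and H2-Q7 6.81%, 6.62% and 4.98%.

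Both subunits of the peptide transporter rose. Tap1 (chromosome 17, 34187556 to 34197225), one of the 2 ATP-binding subunits, stood at 406, 485 and 542 CPM in activated libraries and 382, 340 and 348 CPM in non-activated ones. It was 1.34-fold higher (log2 0.42 ± 0.12, SE; edgeR adjusted p = 0.0297). The log2 ratio of A1 to N1 was 0.09, against 0.51 for A2 to N2 and 0.64 for A3 to N3. Tap2 (chromosome 17, 34204479 to 34216321), the other subunit, stood at 316, 339 and 388 CPM against 278, 258 and 269 CPM and was 1.30-fold higher (log2 0.37 ± 0.09, SE; edgeR adjusted p = 0.0200). For both subunits the lowest activated library lay above the highest non-activated one. Without A1 and N1 the log2 differences were 0.56 (edgeR adjusted p = 0.00573) for Tap1 and 0.45 (0.0177) for Tap2.

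Both calls were lost when single libraries were left out. In edgeR, Tap1 no longer passed without A2 (adjusted p = 0.0748), A3 (0.101), N2 (0.108) or N3 (0.105). Tap2 no longer passed without A3 (0.0637), N2 (0.0828) or N3 (0.0696). On the deposited TPM, with a pseudocount of 1, limma gave adjusted p = 0.0681 for Tap1 and 0.135 for Tap2.

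Tapasin and the trimming peptidase did not pass in the unpaired fit and passed in the paired one. Tapbp (chromosome 17, 33919478 to 33929290), which holds class I at the transporter, was at 521, 759 and 793 CPM against 444, 591 and 528 CPM, so A1 lay inside the non-activated range. Its log2 difference of 0.41 ± 0.17 (SE; 0.01 to 0.81) had an edgeR adjusted p of 0.119. Within each replicate number the activated library was higher, by log2 0.23 to 0.59, and with the replicate number as a block its log2 difference was 0.39 (edgeR adjusted p = 0.00881). It also passed without A1 (log2 0.56, adjusted p = 0.0140) and without A1 and N1 (log2 0.45, adjusted p = 0.0149). Erap1 (chromosome 13, 74639573 to 74693205) was at 88.3, 106 and 96.5 CPM against 79.4, 86.8 and 81.2 CPM. These groups did not overlap, the log2 difference was 0.23 ± 0.09 (SE; 0.03 to 0.44) and the edgeR adjusted p was 0.0878. That p was 0.0269 with the replicate block, 0.0386 without A1 and 0.0917 without A1 and N1. Erap1 overlaps Cast, a calpain inhibitor gene, by 840 bases, and the strand of the reads is not stated. Cast itself fell, by 0.40 on the log2 scale (edgeR adjusted p = 0.00543).

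**Figure D2:**
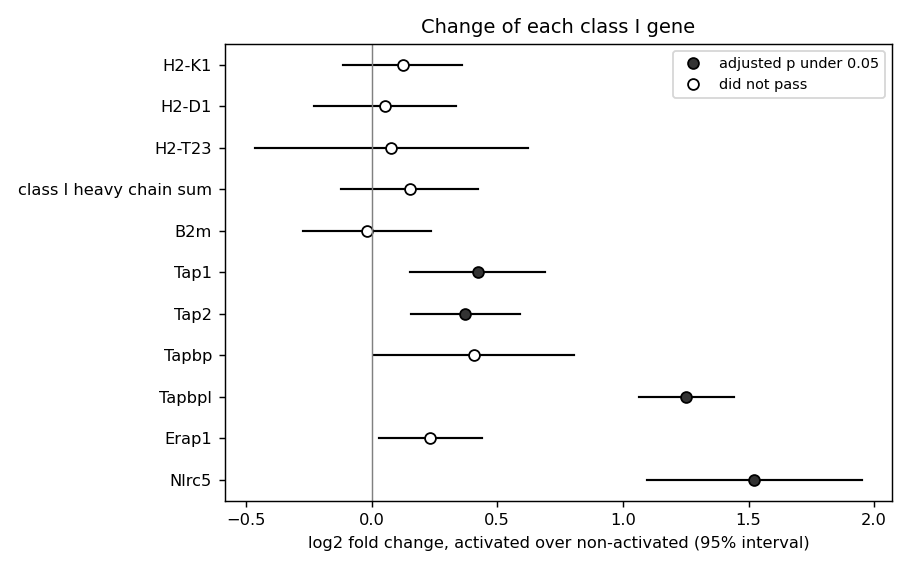
Log2 fold change of each gene and of the summed heavy chain family, activated over non-activated, with 95% intervals from edgeR; filled points had an adjusted p under 0.05. Tapbpl and Nlrc5 lie above 1, Tap1 and Tap2 near 0.4, and the intervals of the heavy chains, their sum and B2m span 0.

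Tapbpl, the editor that works apart from the transporter, rose by a similar amount in all 3 replicate numbers. The gene lies on chromosome 6 (125223927 to 125231860) and stood at 172.5, 172.7 and 172.8 CPM in activated cells and at 66.5, 72.4 and 78.5 CPM in non-activated ones. It was 2.38-fold higher (log2 1.25 ± 0.08, SE; edgeR adjusted p = 3.35e-05). Its rank by TPM went from 2736 to 3235 in non-activated libraries to 1262 to 1296 in activated ones. Within the 3 replicate numbers it was between 2.20-fold and 2.59-fold higher. The call held in each of the 17 alternatives, with log2 fold changes from 1.18 (without A1 and N1, edgeR adjusted p = 1.64e-04) to 1.31. E130112N10Rik overlaps Tapbpl by 592 bases and has no counts under that name. With strand not stated, its part in the Tapbpl counts was not tested.

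Nlrc5, the class I transactivator, had the largest fold change of the 10 genes. It lies on chromosome 8 (94434335 to 94527272) and stood at 92.7, 141 and 155 CPM in activated and 38.8, 48.3 and 48.4 CPM in non-activated cells. Every activated library lay above every non-activated one, and A1 and N1 were the lowest of their groups. The fold change was 2.87 (log2 1.52 ± 0.19, SE; 95% interval 1.09 to 1.95; edgeR adjusted p = 6.70e-04), and log2 1.60 without A1 and N1 (edgeR adjusted p = 4.92e-05). It passed in each of the 17 alternatives, with log2 fold changes from 1.36 to 1.70. The gene 9330175E14Rik, which overlaps it by 769 bases, had 40.1 to 146 counts per library, against 1018 to 3801 for Nlrc5. Gm51584 and Mir7072 overlap Nlrc5 by 14995 and 60 bases and have no counts under these names. With strand not stated, their part in the Nlrc5 counts was not tested.

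**Figure D3:**
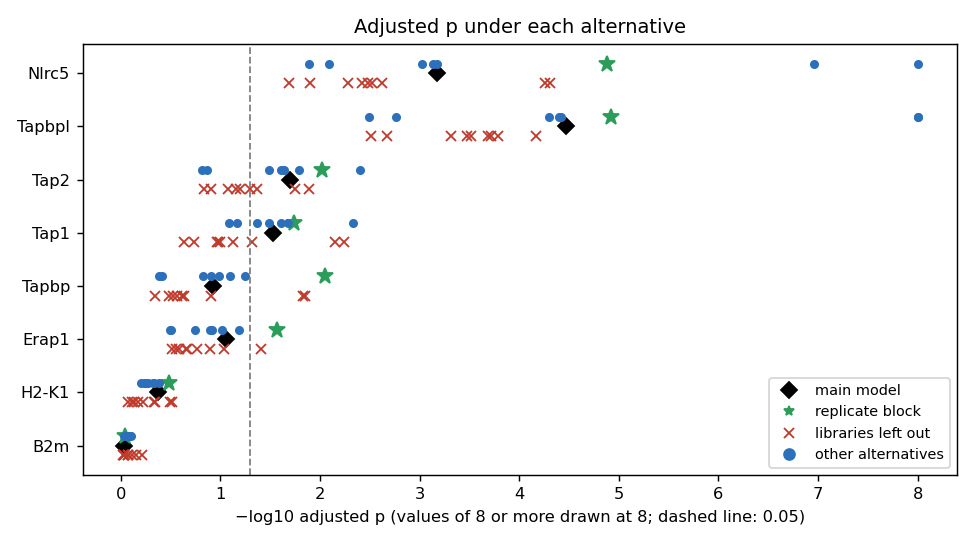
Adjusted p (as −log10, values of 8 or more drawn at 8) of 8 of the genes in the main model, with the replicate block, with libraries left out and under the other alternatives; the dashed line is 0.05. Nlrc5 and Tapbpl lie right of the line throughout, Tap1, Tap2, Tapbp and Erap1 lie on both sides, and H2-K1 and B2m lie left of it.

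Ratios within a library show how the parts moved against each other. They use TPM, so that genes of unequal length can be compared, and 3 libraries against 3 cannot give an exact permutation p below 0.1; 6 ratios were computed. The balance of the class I molecule's own chains, H2-K1 plus H2-D1 over B2m, was 0.846, 0.902 and 1.00 in activated and 0.792, 0.914 and 0.855 in non-activated libraries (exact permutation p = 0.5, two-sided). Tap1 over Tap2 was 1.61, 1.94 and 1.69 against 1.68, 1.63 and 1.47 (exact permutation p = 0.4, two-sided), and these groups overlapped as well.

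H2-K1 over H2-D1 was 0.996 ± 0.0508 in activated and 0.959 ± 0.0181 in non-activated libraries (SD, n = 3; exact permutation p = 0.5, two-sided). The other 3 ratios separated the groups, each at the smallest exact permutation p of 0.1 (0.2 after Benjamini-Hochberg adjustment over the 6). H2-K1 plus H2-D1 over Tap1 plus Tap2 was 15.4, 15.5 and 13.7 in activated and 18.1, 20.6 and 17.9 in non-activated libraries. Tapbp over Tapbpl, the 2 related editors, was 2.89, 4.30 and 4.79 against 6.56, 8.37 and 7.08. B2m over Nlrc5 was 196, 129 and 136 against 524, 374 and 396. In each of the 3, every activated library lay below every non-activated one. Each has genes that did not pass as its numerator and genes called higher as its denominator. The separation therefore restates those calls and is no further test.

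**Figure D4:**
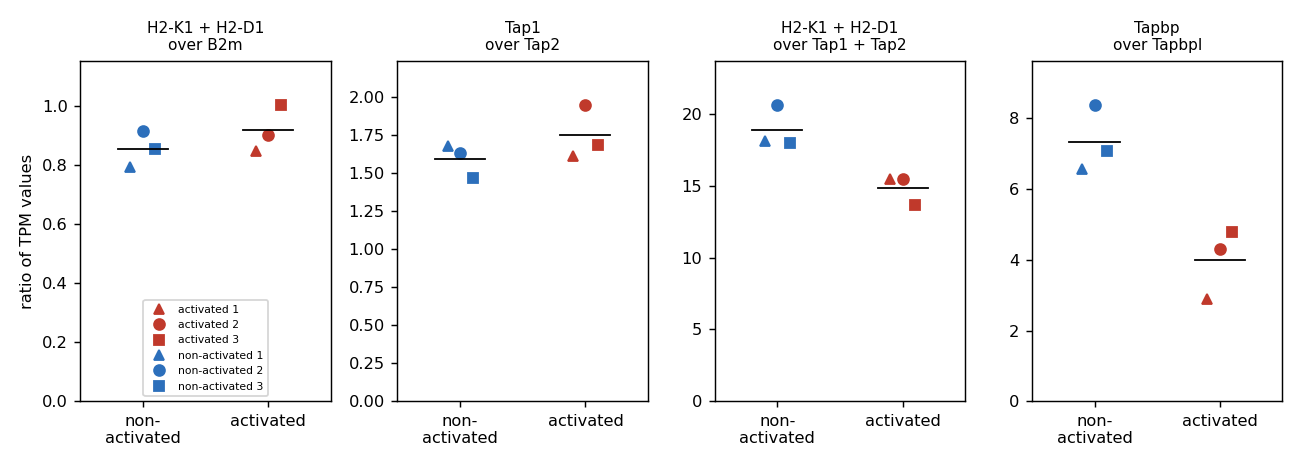
Ratios of deposited TPM values within each library, with red for activated, blue for non-activated, marker shapes for replicate numbers and bars for group means; each axis starts at 0. The 2 left ratios overlap between groups, and the 2 right ratios are lower in all 3 activated libraries.

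TPM also carries the effective length, the length over which reads of a gene's transcripts can start, averaged over those transcripts. It varied between libraries for 8 of the 10 genes. The highest was 1.14 times the lowest for Tap1 and 1.10 times for Tapbp. For Erap1 it ran from 2648 bases in N1 to 3846 in N2, a ratio of 1.45. Erap1 overlapped between groups in TPM (39.8, 42.2 and 47.8 against 42.5, 33.2 and 36.3) but not in CPM. For Nlrc5, with 9 transcripts, effective length ran from 2631 to 3536 bases, and its TPM of 45.0 to 78.3 in activated cells did not overlap 18.9 to 25.4 in non-activated ones. B2m and Tapbpl, with 1 transcript each, had fixed effective lengths.

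Correlations across the 6 libraries are given as a description, since the points share the group difference and the library scaling. Log2 CPM of Nlrc5 correlated at 0.96 with Tapbpl, 0.94 with Tap2, 0.91 with Tap1, 0.90 with Erap1, 0.85 with Tapbp, 0.68 with H2-K1, 0.39 with H2-D1, 0.12 with H2-T23 and -0.16 with B2m (Pearson, n = 6 libraries). B2m correlated at 0.82 with H2-T23, and Tap1 at 0.98 with Tap2. Once each group's mean had been taken away, Tap1 and Tap2 still correlated at 0.94. Nlrc5 then correlated at 0.97 with Tapbp, 0.74 with Erap1, 0.66 with Tap1, 0.65 with H2-D1 and 0.62 with Tap2. Its values were 0.38 with Tapbpl, 0.36 with H2-K1, -0.05 with H2-T23 and -0.21 with B2m. Among 8616 genes with a mean of at least 10 CPM, those most like Nlrc5 were Ptk2b (r = 0.999), Prr13 (0.997), Cdkn1a (0.996), Aco1 (0.995) and Slc39a1 (0.994). These 5 were picked for following Nlrc5, which itself rose, so their rise of 1.30-fold to 1.54-fold is part of that choice.

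The rest of the pathway was read from 8 lists of related genes, in which 97 genes were tested. Over all tested genes 15.9% passed higher and 11.7% lower, and each list count below stands against these shares. The counts are from the fit without pairing, which called 33 genes across the lists, against 40 with the replicate block. Median log2 fold changes were 0.16 for other class I heavy chains, 0.42 for the immunoproteasome list, -0.09 for peptidases, 0.23 for transcription factors, -0.05 for cross-presentation, 0.13 for quality control and 0.02 for the interferon gamma receptor arm, against 0.01 over all genes tested. Other heavy chain and class I-like genes went both ways, with 3 of 17 higher, 3 lower and 11 not passing. Cd1d1, which presents lipids, was 2.58-fold higher (224, 258 and 215 against 91.2, 91.8 and 87.6 CPM; edgeR adjusted p = 3.12e-05). H2-M3, which presents formylated peptides, was 1.51-fold higher and H2-M2 1.81-fold higher. The Fc receptor chain Fcgrt fell from 13.1 to 5.29 CPM, Hfe, which acts in iron uptake, from 8.25 to 3.82 CPM, and H2-K2, an H2-K relative, from 22.1 to 12.3 CPM. The H2-M2 call was lost in edgeR without A2 (adjusted p = 0.0548), A3 (0.0583), N1 (0.0773) or N3 (0.112). That of Hfe was lost without A2 and N2 (edgeR adjusted p = 0.0718) and on TPM with a pseudocount of 1 (limma adjusted p = 0.0656).

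Of 6 genes of the immunoproteasome and its activator, 4 rose and 0 fell. The activator subunits Psme2 (2.13-fold; 323, 314 and 346 against 166, 146 and 148 CPM) and Psme1 (1.28-fold), the immunoproteasome subunit Psmb10 (1.58-fold) and the assembly factor Pomp (1.40-fold) passed. Psmb9, which shares its upstream region with Tap1, stood at 115, 114 and 138 CPM against 108, 90.9 and 103 CPM (log2 0.28 ± 0.10, SE; edgeR adjusted p = 0.0783). Psmb8, the other immunoproteasome subunit of that locus, stood at 300, 271 and 338 CPM against 342, 313 and 317 CPM (edgeR adjusted p = 0.505). The Psme1 call was lost in edgeR without A1 and N1 (adjusted p = 0.0547), A2 and N2 (0.0504) or A3 and N3 (0.0805). It was also lost in limma on TPM with a pseudocount of 0.1 (adjusted p = 0.052). The Pomp call was lost without A3 and N3 (edgeR adjusted p = 0.0608).

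Of 11 folding factors of the endoplasmic reticulum, 1 rose, 0 fell and 10 did not pass, with a median log2 fold change of 0.04. The chaperones Calr, Canx and Pdia3, which take part in class I assembly, had log2 differences of -0.15, 0.09 and 0.01. The gene that rose, the glucosidase Mogs, was at 45.8 ± 6.13 against 35.5 ± 2.45 CPM (SD, n = 3); its call was lost when A2, A3, N1, N2 or N3 was left out (edgeR adjusted p 0.0755 to 0.142). Cytosolic and endosomal peptidases had 1 of 10 higher and 3 lower. Prep rose 1.65-fold. Npepps, Tpp2 and Nrd1 fell, by 0.31, 0.38 and 0.28 on the log2 scale. The edgeR call of Npepps was lost without N2 (adjusted p = 0.0537), that of Tpp2 without A2, A3 or N1 (0.0563 to 0.0720) and that of Nrd1 without A3, N1 or N2 (0.0566 to 0.0907). On TPM the Nrd1 difference turned to 0.32 (limma adjusted p = 0.360).

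Transcription factors known to act at class I promoters included 6 of 18 higher, 1 lower and 11 not passing. Irf1, which binds the IRF element, was 3.92-fold higher (327, 331 and 307 against 84.6, 78.1 and 83.6 CPM). Irf9, a partner in interferon-activated transcription, was 1.82-fold higher and Rfx5, an X box binding factor, 1.65-fold higher. Atf1, a CRE-binding factor, fell by 0.29 on the log2 scale, a call lost without A2, A3, N1 or N2 (edgeR adjusted p 0.0632 to 0.102). In the interferon gamma receptor arm 3 of 8 rose and 2 fell. The feedback inhibitors Socs1 and Socs3 were 1.73-fold and 1.73-fold higher and the phosphatase Ptpn11 1.68-fold higher, while the receptor chain Ifngr1 fell from 53.0 to 37.6 CPM and the phosphatase Ptpn2 from 63.5 to 46.4 CPM. In edgeR the calls of Socs3 (adjusted p = 0.0609) and Ifngr1 (0.0870) were lost without A3 and N3. That of Ptpn2 was lost without A2 and N2 (0.0605). The Rfx5 call was lost on TPM with a pseudocount of 0.1 (limma adjusted p = 0.0514).

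Genes of cross-presentation and class I traffic had 2 of 17 higher and none lower. Those of quality control and turnover had 3 of 10 higher and 1 lower. The shares over all tested genes were 15.9% higher and 11.7% lower. Sec22b, a SNARE protein, was at 69.8 ± 4.29 against 55.8 ± 1.74 CPM (SD, n = 3), and Cybb, the NADPH oxidase subunit, at 1152 ± 240 against 733 ± 188 CPM. Vcp, which extracts proteins from the endoplasmic reticulum, was 1.87-fold higher, the intramembrane protease Sppl2a 1.59-fold and the adaptor Sel1l 1.29-fold higher, and the ubiquitin-conjugating enzyme Ube2j2 fell by 0.29 on the log2 scale. In edgeR these calls were lost for Sec22b without A2, N1 or N3 (adjusted p 0.0614 to 0.0645) and for Cybb without A2, A3, N2 or N3 (0.0837 to 0.151). Cybb also missed the threshold with RLE (0.0503) or upper quartile (0.0525) scaling. They were lost for Sel1l without A2, N2 or N3 (0.0539 to 0.0676) and for Ube2j2 without A3, N1 or N2 (0.0588 to 0.0965).

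**Figure D5:**
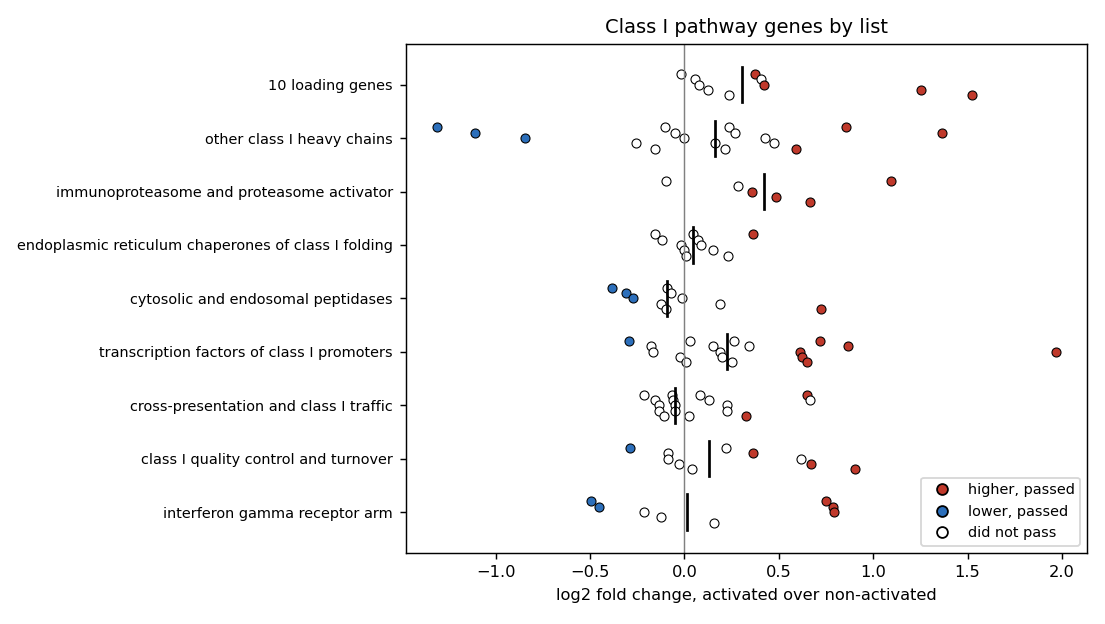
Log2 fold change (activated over non-activated) of each tested gene of the 10 loading genes and of the 8 pathway lists; filled red and blue points passed an adjusted p of 0.05 higher and lower, open points did not pass, and vertical bars are list medians. Proteasome genes have the highest list median and the folding factors cluster around 0.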

How the data were processed

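Per the labels' protocols, each RNA-seq library took 200 ng of RNA, a NEBNext Ultra kit and single reads of 60 nt; strand is not stated. Per the file headers, the authors deposited gene tables in the RSEM layout, with an expected count per gene (reads that fit several genes are shared in fractions), TPM and effective length for 41813 mouse Ensembl genes. Aligner and counter: not given in the sources used here. GRCm38 is named in the submitters' processing notes, and the tables carry a human build in their names. Symbols matched 41597 IDs; genes without one took at most 0.0452% of counts.

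Expected counts were rounded and tested with edgeR 4.0.16 (R 4.3.3): filterByExpr, TMM, glmQLFit and glmQLFTest on group alone, with Benjamini-Hochberg adjustment over 13946 genes and a threshold of 0.05. SE is the log2 fold change over the root of F, and 95% intervals use the test's degrees of freedom. The code was tested on simulated data. DESeq2 1.42.0 and limma 3.58.1 on log2 (TPM + 1) were alternatives, with others given in the closing section. Each of the 10 genes had at least 1018 counts in every library. Same-numbered libraries deviated together from their group means (r = 0.40, 0.31 and 0.19, against -0.31 to 0.04 for other pairs). Deviations cancel out within each group, so positive values for same-numbered pairs push those of other pairs down. That contrast is thus partly built in. The replicate numbers were used as the block because of the same-numbered values, and what the numbers mark is not in the labels. The main fit and the fits with libraries left out do not use this pairing. A gene that did not pass in them can pass with the block, as Tapbp and Erap1 did.

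The genes and pathway lists were chosen with earlier results of these data known. Named were all 10 genes, up to 4 genes per list and direction with the smallest adjusted p among those that passed, and the 5 genes most correlated with Nlrc5 (1 gene that the rule names is not reported here); Psmb8, Psmb9, Calr, Canx and Pdia3, Cast and 9330175E14Rik, Trac, Lck, Zap70, Cd247, Fscn1, Ccr7, Irf4 and Zbtb46 were added after their values were seen. Gm51584, Mir7072 and E130112N10Rik, which have no counts here, were named for their overlap. Coordinates and promoters are RefSeq's on GRCm38.p6.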

Additional observations from a re-analysis of the deposited data

How the results depend on the processing

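Each of the 10 genes was refitted under 17 alternatives; Tapbpl, Nlrc5, H2-K1 and the heavy chain sum (log2 0.06 to 0.23, 16 alternatives) kept direction and side of the threshold in all of theirs. Of the 10 genes 4 were called in the main model, 6 with the replicate block, which changed no other member's call than those of Tapbp and Erap1, and 2 on TPM in limma with a pseudocount of 1 and 2 with 0.1. Leaving out single libraries gave 2 to 6; leaving out both libraries of replicate 1, 2 or 3 gave 5, 2 and 2. Over all genes the block gave 2787 higher and 2397 lower calls, against 2216 and 1632. TPM gave 1388 higher and 977 lower with a pseudocount of 1, and 1293 and 824 with 0.1. Without both replicate 2 libraries there were 1277 higher and 775 lower, without both replicate 3 libraries 1185 and 600, and the lower calls ran from 1061 (without N2) to 1673 with single libraries left out. Calls in the 8 pathway lists numbered 33, and 40 with the block, 20 on TPM with 0.1, 20 without both replicate 2 libraries and 16 without both replicate 3 libraries. Both fits without a pair use fewer libraries. H2-D1, H2-T23 and B2m changed sign without passing: H2-D1 ran from -0.031 (without A2) to 0.13 and was -0.036 without A3 and N3, H2-T23 ran from -0.16 (without A2) to 0.26, and B2m from -0.10 (without A2) to 0.042 (without N1) with single libraries left out and was 0.043 without A1 and N1. Nrd1 turned to 0.32 on TPM with either pseudocount; the cause was not tested. No group has over 3 libraries, and no alternative depth was tried.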
